A study of Saccharomyces cerevisiae with 14 samples.

Results

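Middle sporulation genes are the group that budding yeast switches on for the meiotic divisions and for wrapping each nucleus into a spore. The 46 genes described here were chosen by name, as listed genes of the prospore membrane, the spore septins, the sporulation kinases and the spore wall, and each has 1 probe set among the 5449 genes measured. In growing cells many middle sporulation genes are known to be held off by the DNA-binding protein Sum1. It recruits Rfm1 and the deacetylase Hst1 to their promoters. Which of the 46 genes are held off in this way was not tested here. Hst1 is a sirtuin, an enzyme that consumes NAD+ and is inhibited by nicotinamide. During sporulation the activator Ndt80 takes the place of Sum1. Sporulation is normally entered by starved diploids that carry both mating types, whereas the cells here were MATa and grew in rich medium.

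Total RNA was taken from 14 cultures in log phase in rich YPD medium and hybridised to Affymetrix Yeast 2.0 arrays, with 2 arrays for each of 7 groups. All strains carried MATa and the alleles his3D200, leu2D1 and met15D0, together with trp1D63 and ura3-167. In 4 groups kanMX4 replaced NPT1, PNC1, BNA1 or TNA1, 1 group was wild type grown with 5 mM nicotinamide (NAM), and 2 groups were untreated wild type, coded ML1 and ML8. The labels do not say which wild-type pair belongs to which condition, so the 4 arrays served as 1 control group. The series describes the pairs as duplicate cultures of a strain. The p values therefore measure the spread between such cultures, pooled over all groups, and say nothing of independent transformants. For genes with a low signal in most groups, the pooled spread is taken over mostly low signals and can understate that at a raised level.

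Pnc1 turns nicotinamide into nicotinic acid, which Npt1 feeds back into NAD+. Bna1 belongs to the route that makes NAD+ from tryptophan, and Tna1 imports nicotinic acid. Array medians lay between 9.75 and 9.84 on the log2 scale. A signal limit for background was set on each array at the 95th percentile of probe sets whose annotated gene is not in the S. cerevisiae reference. This limit lay between 2.22 and 2.26. Each deleted gene was lost in its strain, with NPT1 at 2.18 and 2.19 in npt1Δ against 12.34 to 12.54 in wild type. The a-specific genes, which mark MATa cells, averaged 13.00 to 13.12 on the wild-type arrays and 12.97 to 13.11 in the 4 deletion strains. In nicotinamide they averaged 9.36 on array A and 7.0 on array B.

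In wild type the group was low. The median of the 46 genes was 2.63 (log2) against 9.80 over all tested probe sets, and all 46 lay under that overall median. On all 4 wild-type arrays 30 genes were above the background limit, 11 were below it, and 5 were above it on some of them. Over all tested probe sets, 97.3% were above the limit on all 4 wild-type arrays and 1.91% were below it on all of them. The level in wild type spanned from 2.00 for SMA2 to 9.14 for SPO73, though signals of different probe sets do not rank transcripts by abundance. With the 90th or the 99th percentile as the limit, 10 or 19 of the genes were below it on all 4 arrays.

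**Figure D1:**
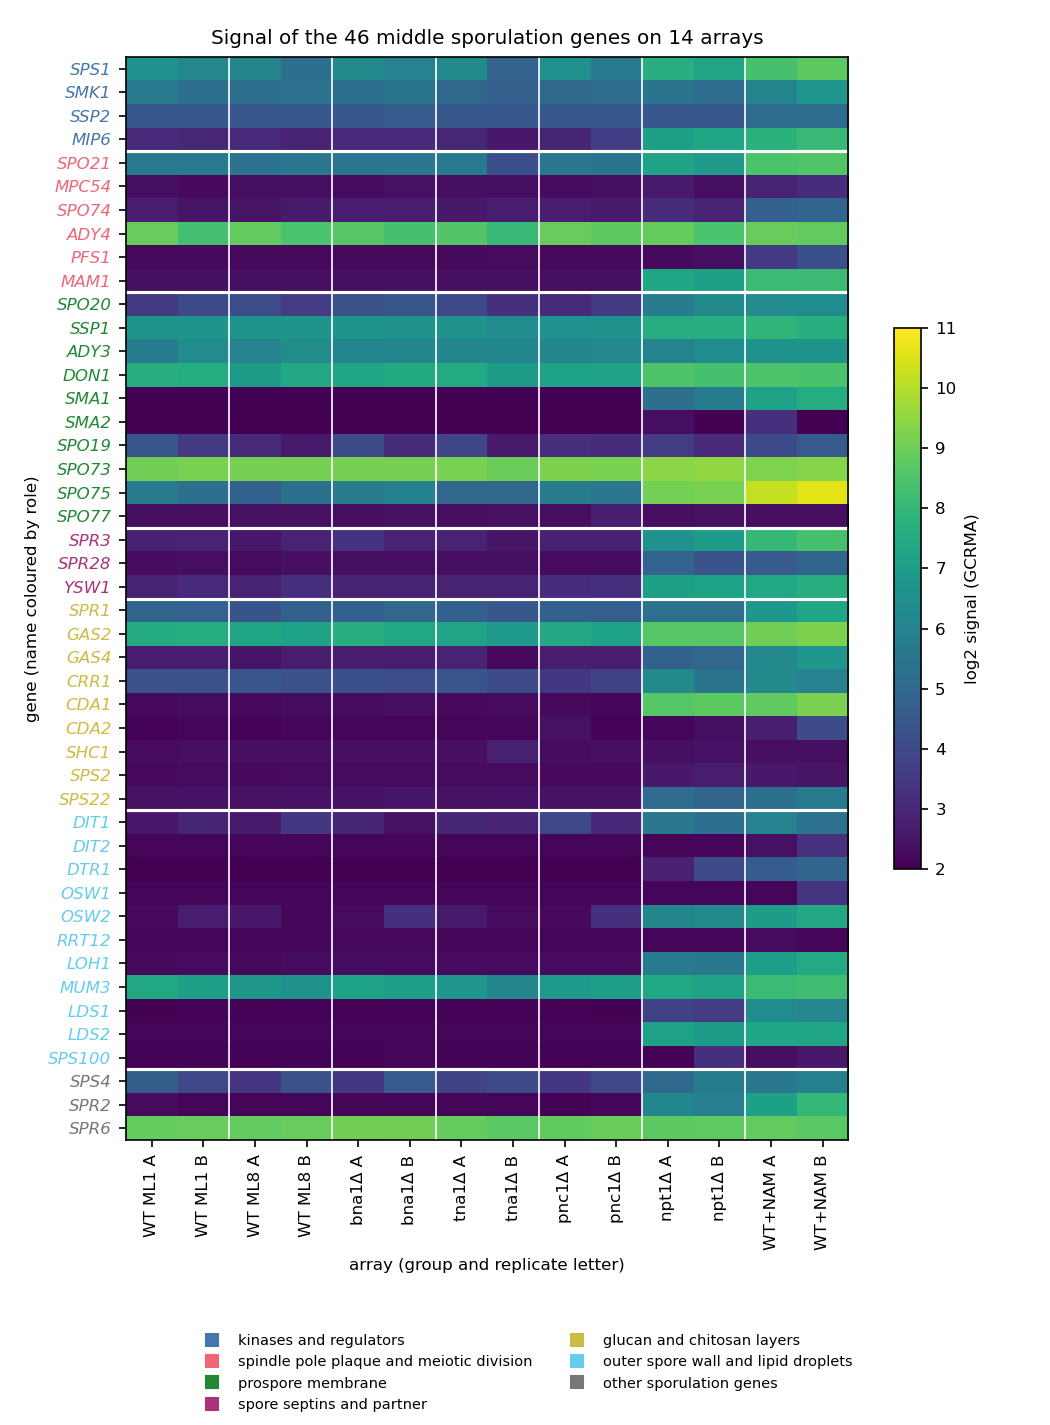
Log2 signal (colour) of the 46 genes (rows, name coloured by role) on each of the 14 arrays (columns, 2 per group). Most rows are dark on the wild-type, bna1Δ, tna1Δ and pnc1Δ arrays and lighter on the npt1Δ and nicotinamide (WT+NAM) arrays, while ADY4, SPO73 and SPR6 are bright on all 14.

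The first question was in which conditions these genes left their low state. In npt1Δ 26 of the 46 genes were higher than in wild type and 0 were lower, where 3.56% of all tested probe sets were higher and 0.637% lower (limma, Benjamini-Hochberg adjusted p under 0.05 over all 5498 probe sets). In nicotinamide 35 of 46 were higher and 0 lower, against 8.88% and 7.02% of all probe sets. The median difference of the 46 genes was 1.16 (log2) in npt1Δ and 1.79 in nicotinamide, beside -0.03 and -0.00 over all probe sets. Genes below background in wild type were also set to their lower bound where they had one, 6 in npt1Δ and 10 in nicotinamide. The others kept their fitted value. The medians were then 1.13 and 1.79. Of the called genes, 22 in npt1Δ and 30 in nicotinamide were at least 2-fold higher, beside 2% and 3.36% of all probe sets, and 0 were 2-fold lower (0.0364% and 1.18%). Both npt1Δ arrays lay above all 4 wild-type arrays for 32 of the genes (9.42% of all probe sets), and both nicotinamide arrays did so for 38 (16.4%). They lay below all 4 for 1 gene in npt1Δ (13.3%) and 0 in nicotinamide (16.7%). Over all probe sets, 196 were higher and 35 lower in npt1Δ, and the split became 181 and 117 when the arrays were quantile-normalized. In nicotinamide the split was 488 and 386, and became 455 and 568 after quantile normalization and 553 and 285 after centring on the array median.

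No member was called in the other 3 deletion strains. By limma, 0 of 46 genes were called in pnc1Δ, where 0.818% of all probe sets were higher and 1.42% lower. In bna1Δ and in tna1Δ 0 of 46 were called as well, where 0% of all probe sets were higher and 0.0182% lower. At an unadjusted p under 0.05 there were 1, 2 and 5 of 46 in pnc1Δ, bna1Δ and tna1Δ. The medians of the 46 differences were -0.01, 0.01 and -0.01 (log2). The 95% interval of the difference had an upper bound under 1 for 43 genes in pnc1Δ, 41 in bna1Δ and 46 in tna1Δ. The comparisons share the 4 wild-type arrays. None of the 46 was called at 2-fold either (0.127% of all probe sets higher and 0.218% lower in pnc1Δ). Both arrays lay above wild type for 1 gene in pnc1Δ (9.79% of all probe sets), 7 in bna1Δ (5.4%) and 0 in tna1Δ (4.22%). They lay below it for 7 (13.4%), 2 (2.09%) and 2 (6.58%) genes.

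**Figure D2:**
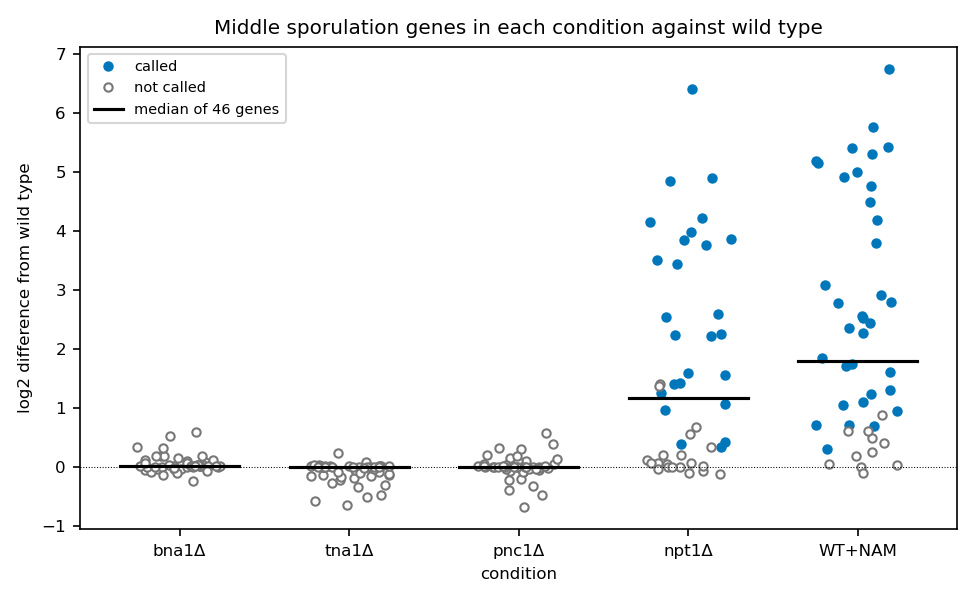
Log2 difference from wild type (vertical axis) of each of the 46 genes in 5 conditions, with filled points for called genes, open points for the others and a bar for the median. The points of bna1Δ, tna1Δ and pnc1Δ lie between -0.68 and 0.60 with none filled, and those of npt1Δ and nicotinamide reach 6.41 and 6.75.

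Some single values in these strains stood off the median without passing the test. CRR1, a gene of the spore wall, differed by -0.68 in pnc1Δ (95% interval -1.08 to -0.29, adjusted p = 0.083), and both pnc1Δ arrays lay below all 4 wild-type arrays. With either npt1Δ array left out of the fit that difference was called. SPO75 and SPO20 had the largest positive differences in bna1Δ, 0.60 and 0.51 (adjusted p = 0.9998 for both). In tna1Δ the lowest were SPO21 at -0.65 and SMK1 at -0.58 (adjusted p = 0.79 for both). The tna1Δ arrays differed from each other here: of the 30 genes above background on all wild-type arrays, 22 were lower on array B, with a median difference of -0.21. Over all 46 genes 25 were lower (median -0.00), and over all probe sets 58.9% were (median -0.03). SPO21 was at 5.67 on tna1Δ array A and 4.21 on array B, and was called lower (-1.38) when array A was left out.

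Between the wild-type pairs none of the 46 genes was called by limma (0 called, 3 at an unadjusted p under 0.05, where 0.0364% of all probe sets were higher and 0.0364% lower). The largest gap was that of SPO19, a GPI-anchored prospore protein gene, at 4.40 and 3.53 on the ML1 arrays and 3.08 and 2.65 on the ML8 arrays. Its difference between the pairs was 1.10 (log2, adjusted p = 0.261). Without ML1 array B, still 0 of the 46 genes were called, but 465 of all probe sets were higher and 667 lower, against 2 and 2 with it. The ML1 arrays lay above both ML8 arrays for 7 genes (21% of all probe sets) and below them for 3 (20.2%).

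Regulators and signalling genes come first in the order of roles. SMK1 encodes the sporulation MAP kinase, SSP2 its activator, SPS1 a Ste20-family kinase and MIP6 an RNA-binding protein. In npt1Δ 1 of these 4 rose, and in nicotinamide all 4 did. MIP6 was at 3.10, 2.98, 3.09 and 2.85 in wild type, 7.12 and 7.33 in npt1Δ and 7.77 and 8.05 in nicotinamide. The groups did not overlap, with a rise of 4.22 ± 0.19 (SE, log2, adjusted p = 1.49e-07 by limma) in npt1Δ and of 4.91 ± 0.19 (adjusted p = 2.58e-08) in nicotinamide. SPS1 was at 5.30 to 6.55 in wild type, 7.63 and 7.25 in npt1Δ and 8.38 and 8.72 in nicotinamide. Its npt1Δ arrays lay above the wild-type range but the difference of 1.41 ± 0.42 was not called (adjusted p = 0.125), while that of 2.52 in nicotinamide was (adjusted p = 0.00209).

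SMK1 and SSP2 were called in nicotinamide and not in npt1Δ. SMK1 was at 5.75, 5.34, 5.34 and 5.40 in wild type, 5.47 and 5.23 in npt1Δ and 6.06 and 6.75 in nicotinamide. Its difference in nicotinamide, 0.95 ± 0.19, was called (adjusted p = 0.00624), but not without nicotinamide array B (adjusted p = 0.0882). SSP2 held between 4.45 and 4.48 in wild type and npt1Δ and reached 5.14 and 5.23 in nicotinamide, a difference of 0.72 ± 0.05 (adjusted p = 2.24e-06) that turned to -0.25 after quantile normalization of the deposited values. Both were also higher in nicotinamide than in npt1Δ, by 1.06 and 0.72 (adjusted p = 0.0124 and 1.98e-05), and the first of these calls was lost without npt1Δ array B or nicotinamide array B (adjusted p = 0.0972 and 0.0958).

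The next genes act where the prospore membrane starts, at the outer plaque of the meiotic spindle pole body, or in the first meiotic division. SPO21, MPC54, SPO74 and ADY4 encode plaque subunits, MAM1 a subunit of monopolin, which clamps sister kinetochores together, and PFS1 acts in spore formation. Of these 6, 3 rose in npt1Δ and 5 in nicotinamide. MAM1 was at 2.37 or 2.38 on all wild-type arrays, 7.31 and 7.12 in npt1Δ and 8.12 and 8.16 in nicotinamide. Its rises of 4.84 ± 0.05 and 5.77 ± 0.05 had adjusted p values of 2.06e-12 and 7.17e-13, and the groups did not overlap. MAM1 was also at 2.37 or 2.38 in pnc1Δ, bna1Δ and tna1Δ. These standard errors thus pool mostly low signals and can understate the spread at the raised level.

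The plaque genes SPO21 and SPO74 rose in both conditions. SPO21 was at 5.44 to 5.73 in wild type, 7.18 and 6.82 in npt1Δ and 8.46 and 8.54 in nicotinamide. SPO74 was at 2.48 to 2.71, then 3.15 and 2.86, then 4.76 and 4.93 in the same order. The rises in npt1Δ were 1.41 and 0.43 (adjusted p = 0.0244 and 0.0376), and those in nicotinamide 2.91 and 2.27 (adjusted p = 6.24e-05 and 6.31e-08). After quantile normalization the npt1Δ difference of SPO74 was 0.13 (adjusted p = 0.602 by limma). With only npt1Δ and wild type in the fit it was not called either (adjusted p = 0.238). Both npt1Δ calls also depended on single arrays. That of SPO21 was lost without either npt1Δ array, without ML1 array B or without either ML8 array (adjusted p from 0.0529 to 0.232). That of SPO74 was lost without npt1Δ array A, ML1 array B, ML8 array A or any single pnc1Δ, bna1Δ or tna1Δ array (adjusted p from 0.0552 to 0.366). SPO74 was 1.84 higher in nicotinamide than in npt1Δ (3.58-fold, adjusted p = 4.46e-06), and SPO21 1.5 higher (adjusted p = 0.0225), a call lost without any 1 of these 4 arrays (adjusted p from 0.0607 to 0.146).

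PFS1 and MPC54 were called in nicotinamide and not in npt1Δ. PFS1 was below background in wild type (2.22 to 2.24), at 2.23 and 2.35 in npt1Δ and at 3.48 and 4.18 in nicotinamide, at least 3.01-fold higher than in wild type (adjusted p = 2.28e-05). A fold written with "at least" is set against the background limit in place of the lower signal. MPC54 reached only 2.87 and 3.14 in nicotinamide from 2.24 to 2.35 in wild type (0.69, adjusted p = 0.00034). ADY4 was bright on all arrays, at 8.32 to 8.90 in wild type, 8.87 and 8.46 in npt1Δ and 8.90 and 8.84 in nicotinamide, and was not called in either (differences 0.04 and 0.25).

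Prospore membrane genes answered unevenly. SPO20 encodes a SNAP-25-like t-SNARE that lets vesicles fuse into the new membrane, SSP1, ADY3 and DON1 the coat at its leading edge, and SMA1 and SMA2 proteins of its assembly. SPO19, SPO73, SPO75 and SPO77 encode further proteins of the membrane or its closure. Of these 10 genes, 6 rose in npt1Δ and 5 in nicotinamide. SMA1 was below background in wild type (2.04 or 2.05), at 5.33 and 5.78 in npt1Δ and at 7.13 and 7.59 in nicotinamide. It was at least 9.91-fold higher in npt1Δ (adjusted p = 3.73e-08) and at least 34.7-fold higher in nicotinamide (adjusted p = 7.23e-10). Its partner in name, SMA2, stayed near 2.00 in wild type and was at 2.35 and 2.04 in npt1Δ and 3.21 and 1.99 in nicotinamide, so that the nicotinamide value came from array A alone (not called, adjusted p = 0.137, but called without array B).

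SPO75 rose in both conditions. It was at 4.80 to 5.66 in wild type, 9.11 and 9.18 in npt1Δ and 10.22 and 10.65 in nicotinamide, with rises of 3.87 ± 0.20 and 5.16 ± 0.20 (adjusted p = 4.57e-07 and 2.58e-08). SPO20 rose from 3.53 to 4.14 in wild type to 5.79 and 6.30 in npt1Δ and 6.34 and 6.39 in nicotinamide, by 2.24 and 2.55 (adjusted p = 0.000262 and 3.95e-05). The coat genes SSP1 and DON1 were above background in wild type and rose in both conditions, and the direct difference between the conditions was not called (0.15 for SSP1 and -0.02 for DON1). SSP1 went from 6.65 to 6.67 in wild type to 7.62 and 7.61 in npt1Δ and 7.89 and 7.65 in nicotinamide (0.96 and 1.11). DON1 went from 6.91 to 7.69 to 8.53 and 8.39 and then 8.47 and 8.41 (1.07 and 1.05), and its npt1Δ call was lost without either npt1Δ array (adjusted p = 0.13 and 0.0662).

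The third coat gene, ADY3, was not called in either condition. It was at 5.77 to 6.44 in wild type, 6.01 and 6.38 in npt1Δ and 6.60 and 6.65 in nicotinamide, where the difference was 0.49 (adjusted p = 0.0833, and 0.0349 without ML8 array B). SPO73 was the single gene of the 46 called in npt1Δ and not in nicotinamide, where it was called after quantile normalization (0.22, adjusted p = 0.0464) or median centring (0.23, adjusted p = 0.0457). It showed a small rise from a high level: 9.06 to 9.19 in wild type, 9.44 and 9.52 in npt1Δ and 9.27 and 9.37 in nicotinamide. Its npt1Δ difference of 0.34 (adjusted p = 0.0209) was not called without either npt1Δ array (adjusted p = 0.0815 and 0.185), and the direct difference between the conditions was -0.16 (adjusted p = 0.306). SPO77 stayed between 2.34 and 2.42 across wild type, npt1Δ and nicotinamide, and SPO19, whose wild-type arrays spanned 2.65 to 4.40, was not called in either (-0.08 and 0.88).

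The spore septins and their partner rose together. Spr3 and Spr28 are septins made only in sporulation, where they form bars along the prospore membrane, and Ysw1 works with them. All 3 genes rose in both conditions. SPR3 was at 2.57 to 2.87 in wild type, 6.56 and 6.97 in npt1Δ and 8.0 and 8.40 in nicotinamide, with rises of 3.98 ± 0.18 and 5.42 ± 0.18 (adjusted p = 1.49e-07 and 7.99e-09). YSW1 was at 2.89 to 3.26, then 7.13 and 7.24, then 7.39 and 7.66, with rises of 4.15 and 4.49. SPR28 rose less, from 2.28 to 2.35 in wild type to 4.84 and 4.31 in npt1Δ and 4.60 and 4.91 in nicotinamide (2.26 and 2.44). SPR3 was 1.44 higher in nicotinamide than in npt1Δ (adjusted p = 0.00132, and 0.0596 with only these groups in the fit). For SPR28 and YSW1 that difference was 0.18 (95% interval -0.14 to 0.51) and 0.34 (0.05 to 0.63), and neither was called. The septin genes that also serve in growth were tested beside them. CDC12 fell by 0.34 (adjusted p = 0.00836) in nicotinamide, and CDC3, CDC10, CDC11 and SHS1 were not called in npt1Δ or nicotinamide.

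The inner spore wall consists of glucan and of chitosan, which chitin deacetylases make from chitin. Of 9 genes of these layers, 6 rose in npt1Δ and 8 in nicotinamide. CDA1, a chitin deacetylase gene, had the largest rise in both among the members above background on at least 1 wild-type array. For the 11 others only lower bounds on the fold exist. CDA1 itself lay close to the limit (2.22 to 2.26) in wild type, and under the one at the 99th percentile (2.37 to 2.46). Its rise is therefore close to a lower bound too. The same holds for other genes near these limits in wild type, such as SPR2, LOH1 and MAM1. It was at 2.24, 2.29, 2.24 and 2.30 in wild type, 8.61 and 8.74 in npt1Δ and 8.81 and 9.22 in nicotinamide, a rise of 6.41 ± 0.10 and 6.75 ± 0.10 (adjusted p = 1.3e-11 and 7.48e-12). The second chitin deacetylase gene, CDA2, was at 2.10 or 2.11 in wild type and 2.11 and 2.34 in npt1Δ. It reached 2.75 and 4.08 in nicotinamide, at least 2.25-fold higher than in wild type (adjusted p = 0.0078). With only nicotinamide and wild type in the fit it was not called (adjusted p = 0.0806 by limma).

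The glucan layer genes include several pairs of relatives. Gas2 and Gas4 are glucanosyltransferases, Sps2 and Sps22 are GPI-anchored proteins of the glucan layer, and Spr1 is an exo-1,3-beta-glucanase. GAS4 rose from 2.52 to 2.73 in wild type to 4.80 and 4.97 in npt1Δ and 6.22 and 6.73 in nicotinamide (2.21 and 3.80, adjusted p = 1.72e-05 and 1.02e-07). GAS2 was at 7.22 to 7.56 in wild type and rose to 8.66 and 8.67 and to 9.04 and 9.21 (1.25 and 1.72). SPS22 rose from 2.40 to 2.46 to 5.13 and 4.89 in npt1Δ and to 5.30 and 5.72 in nicotinamide (2.59 and 3.08). SPS2 was called with differences of only 0.39 and 0.31, from 2.22 to 2.27 in wild type to at most 2.67. Its nicotinamide call was lost after quantile normalization (adjusted p = 0.138 by limma). SPR1 was called in nicotinamide alone, where it reached 6.79 and 7.33 from 4.32 to 4.90 in wild type (2.35, adjusted p = 8.27e-06). In npt1Δ it was at 5.39 and 5.37, above every wild-type array but not called (0.67, adjusted p = 0.0866). Nicotinamide exceeded npt1Δ by 1.68 for SPR1 and 1.59 for GAS4 (adjusted p = 0.000645 and 0.000607). CRR1 rose by 1.56 and 1.84. SHC1, which encodes an activator of the chitin synthase Chs3, was not called in either (0.07 and 0.03).

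The outer spore wall is made of dityrosine, which Dit1 and Dit2 synthesise in the cytosol and Dtr1 exports, and lipid droplet proteins of the Lds family take part in its assembly. Of 11 genes of this class, 6 rose in npt1Δ and 8 in nicotinamide. LDS2 was below background in wild type (2.13 or 2.14), at 7.16 and 6.92 in npt1Δ and at 7.33 and 7.29 in nicotinamide. It was at least 27.8-fold and at least 33.6-fold higher (adjusted p = 4.27e-12 and 2.53e-12). LDS1, its family member, was at 2.07 or 2.08 in wild type, 3.75 and 3.59 in npt1Δ and 6.38 and 6.16 in nicotinamide, at least 2.69-fold and at least 16.3-fold higher. The gap between the conditions was 2.59 for LDS1 (6.04-fold, adjusted p = 3.07e-08), the widest fitted for the 46 genes, and 0.27 for LDS2 (adjusted p = 0.0405, not called without any 1 of the arrays but ML1 array A and npt1Δ array A).

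LOH1 and OSW2, genes of the outer wall, rose strongly. LOH1 was at 2.23 to 2.29 in wild type, 5.76 and 5.64 in npt1Δ and 7.02 and 7.50 in nicotinamide (3.44 and 5.01, adjusted p = 6.86e-09 and 2.15e-10). OSW2 was at 2.17 to 2.69, then 6.14 and 6.23, then 6.96 and 7.43 (3.76 and 4.77). The dityrosine genes separated from each other. DIT1 was at 2.58 to 3.44 in wild type, 5.58 and 5.28 in npt1Δ and 5.98 and 5.40 in nicotinamide (2.54 and 2.8, adjusted p = 0.000528 and 0.000104). DIT2 was below background in wild type and npt1Δ and at 2.41 and 3.29 in nicotinamide. It was at least 1.52-fold higher there than in wild type (adjusted p = 0.0196). That call was lost with only nicotinamide and wild type in the fit (adjusted p = 0.137 by limma). Against the ML8 pair alone it was lost as well (adjusted p = 0.0581). DTR1 rose from 2.01 or 2.02 to 2.82 and 4.04 in npt1Δ and to 4.63 and 4.95 in nicotinamide. These levels were at least 2.27-fold and 5.84-fold higher. Its npt1Δ call was lost with only npt1Δ and wild type in the fit (adjusted p = 0.123 by limma).

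Among the rest of the outer wall class, 1 of 4 genes was called. MUM3, which encodes an acyltransferase-like protein, was at 6.63 to 7.36 in wild type, 7.39 and 7.17 in npt1Δ and 8.14 and 8.25 in nicotinamide, and was called in nicotinamide (1.24, adjusted p = 0.00208). RRT12, a subtilisin-like protease gene, lay between 2.16 and 2.27 on all these arrays and was not called. OSW1 was above background on nicotinamide array B only (3.34, against 2.14 on array A). SPS100, a gene of late spore wall maturation, was above it on npt1Δ array B (3.20) and on both nicotinamide arrays (2.37 and 2.61). Neither gene was called in npt1Δ or nicotinamide. OSW1 was called in nicotinamide without array A, and SPS100 in npt1Δ without array A and in nicotinamide without either npt1Δ array.

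Among the 3 genes without a role given here, SPR2 was at 2.11 to 2.26 in wild type. It reached 6.13 and 5.86 in npt1Δ and 7.11 and 8.01 in nicotinamide (3.84 and 5.40, adjusted p = 3.38e-07 and 1.3e-08). SPR2 was above background on only 1 of the 4 wild-type arrays, so these rises are close to lower bounds. SPS4 was at 3.40 to 4.66, 5.07 and 5.79, and 5.61 and 5.97. It was called in nicotinamide (1.74, adjusted p = 0.0114) but not without array B (adjusted p = 0.118), and not in npt1Δ (1.37, adjusted p = 0.0914, and 0.0473 without ML1 array A). SPR6 was high on all arrays, at 8.84 to 8.91 in wild type, 8.74 and 8.77 in npt1Δ and 8.84 and 8.69 in nicotinamide (differences -0.12 and -0.11, not called).

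**Figure D3:**
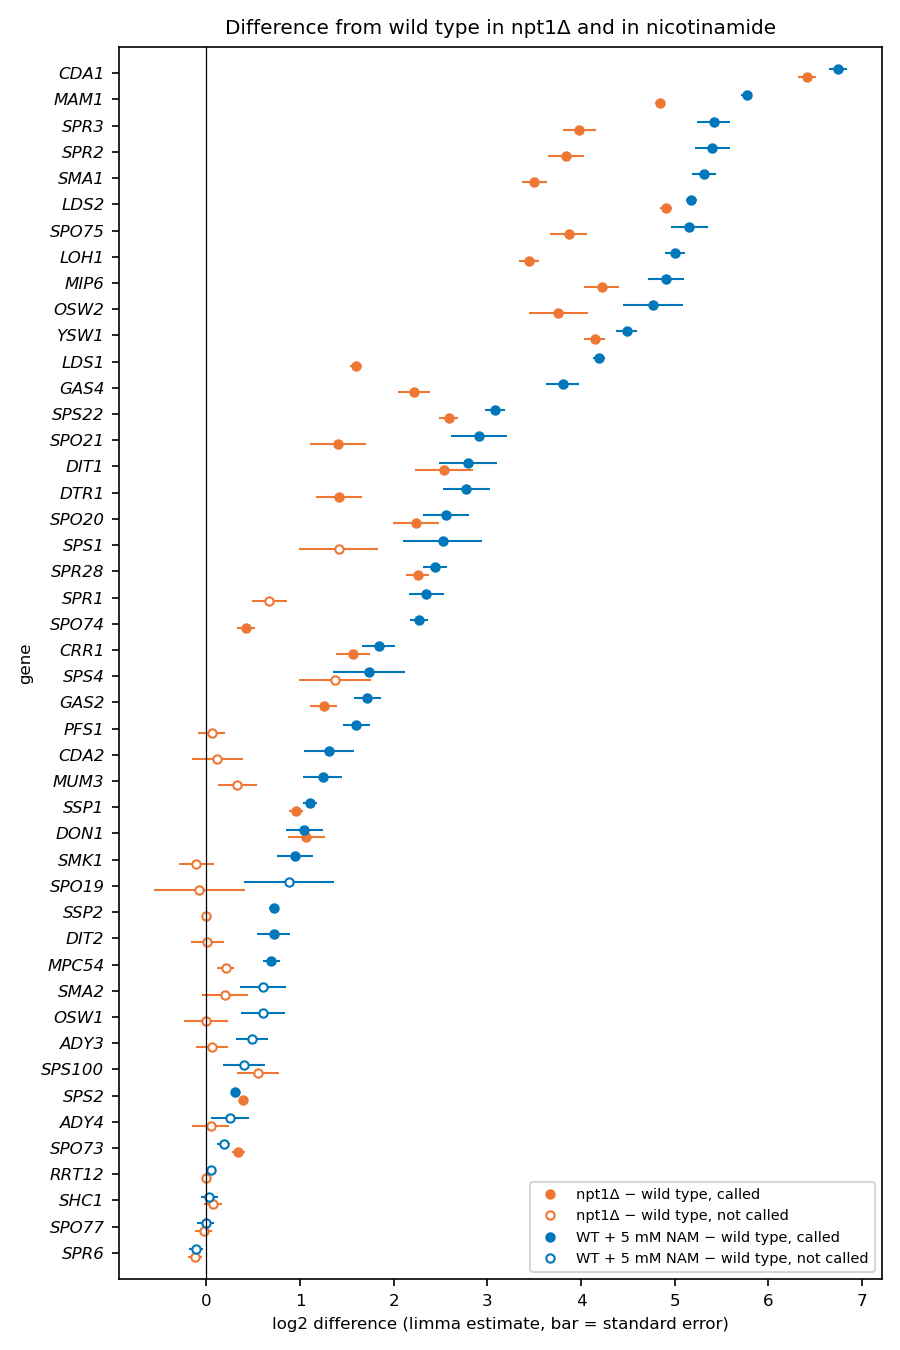
Log2 difference from wild type (horizontal axis, bar for the standard error) of the 46 genes in npt1Δ and in nicotinamide, ordered by the latter, with filled points for called genes. Nicotinamide points lie to the right of the npt1Δ points for 41 genes, by little for CDA1 and LDS2 and by 2.59 for LDS1.

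A direct comparison asked how far nicotinamide went beyond loss of NPT1. Of the 46 genes, 25 were called in both conditions, 10 in nicotinamide alone, 1 in npt1Δ alone and 10 in neither. The direct test between the conditions called 20 genes higher in nicotinamide and 0 lower, where 5.29% of all probe sets were higher and 3.75% lower. At 2-fold, 14 were higher (1.29%) and 0 lower (1.42%), and the arrays did not overlap for 31 genes higher (31.4%) and 1 lower (24.7%). The 20 genes called by the direct test were 13 of the 25 genes called in both and 7 of the 10 called in nicotinamide alone. The 25 genes differed by a median of 0.69 (log2), from -0.08 for SPS2 to 2.59 for LDS1. The widest called gaps after LDS1 were those of SPO74 (1.84), SMA1 (1.81), SPR1 (1.68), GAS4 (1.59) and LOH1 (1.56). Without npt1Δ array B or nicotinamide array B, 14 genes were called, where 171 and 140 of all probe sets were higher, against 291 with all arrays. CDA2, MUM3, MPC54, SPS22, SPO75 and DTR1, besides SMK1, SPO21 and LDS2, were lost in at least 1 of these fits. Among the genes with strong rises in both, the gap was not called for CDA1 (0.34, 95% interval 0.0908 to 0.585), MIP6 (0.69, 0.20 to 1.17) or OSW2 (1.01, 0.19 to 1.83), though CDA1 was called without nicotinamide array A (adjusted p = 0.00243) and MIP6 without either pnc1Δ array (adjusted p = 0.022). When the fit held only the 4 arrays of these groups, 9 of the 20 were called. Not called then were SMK1, MPC54, PFS1, SMA1, SPO75, SPR3, CDA2, SPS22, DTR1, LDS2 and SPR2 (adjusted p from 0.0518 to 0.257).

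Other features of the nicotinamide arrays moved with the group. Only 12 of the 46 genes had a lower value on array B than on array A, with a median difference (B minus A) of 0.25, beside 0.00 over all probe sets. The untreated ML8 pair also had 12 of 46 lower on array B, with a median difference of 0.02. Each of the 7 a-specific genes was called lower in nicotinamide (median difference -5.06), as was each of 13 haploid-specific genes (-2.97), and their means were lower on array B (haploid-specific mean 6.64, against 7.92 on array A and 10.50 to 10.66 in wild type). Among 4 alpha-specific genes STE3, the a-factor receptor gene, was called higher, by 5.06, and the other 3 were not called. Of those, SAG1 was already at 8.94 to 9.22 in wild type, and MF(ALPHA)1 was below background there (2.08 to 2.09). Mainly through STE3, the list averaged 5.71 and 5.84 on the nicotinamide arrays against 4.32 to 4.57 in wild type. On the npt1Δ arrays it averaged 5.74 and 5.70. In npt1Δ 0 of the a-specific and 0 of the haploid-specific genes were called and STE3 rose by 4.85. Whether the loss of haploid expression took part in the further rise of sporulation genes in nicotinamide was not tested. Without nicotinamide array B, 34 of the 46 genes were called, and 297 of all probe sets were higher and 161 lower, against 488 and 386 with it.

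The genes of the known repressor and activator were measured beside the group. SUM1, RFM1 and HST1 were not called in npt1Δ (differences -0.03, -0.07 and -0.17) or in nicotinamide (-0.16, 0.37 and -0.16). Transcript levels say nothing of the activity of the proteins. NDT80, the activator gene, was at 5.45 to 6.06 in wild type, 6.64 and 6.54 in npt1Δ and 6.78 and 6.79 in nicotinamide. It rose by 0.84 ± 0.18 (adjusted p = 0.0236) and 1.03 ± 0.18 (adjusted p = 0.00257). On the pnc1Δ arrays it was at 6.20 and 6.32, a difference of 0.51 that was not called.

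**Figure D4:**
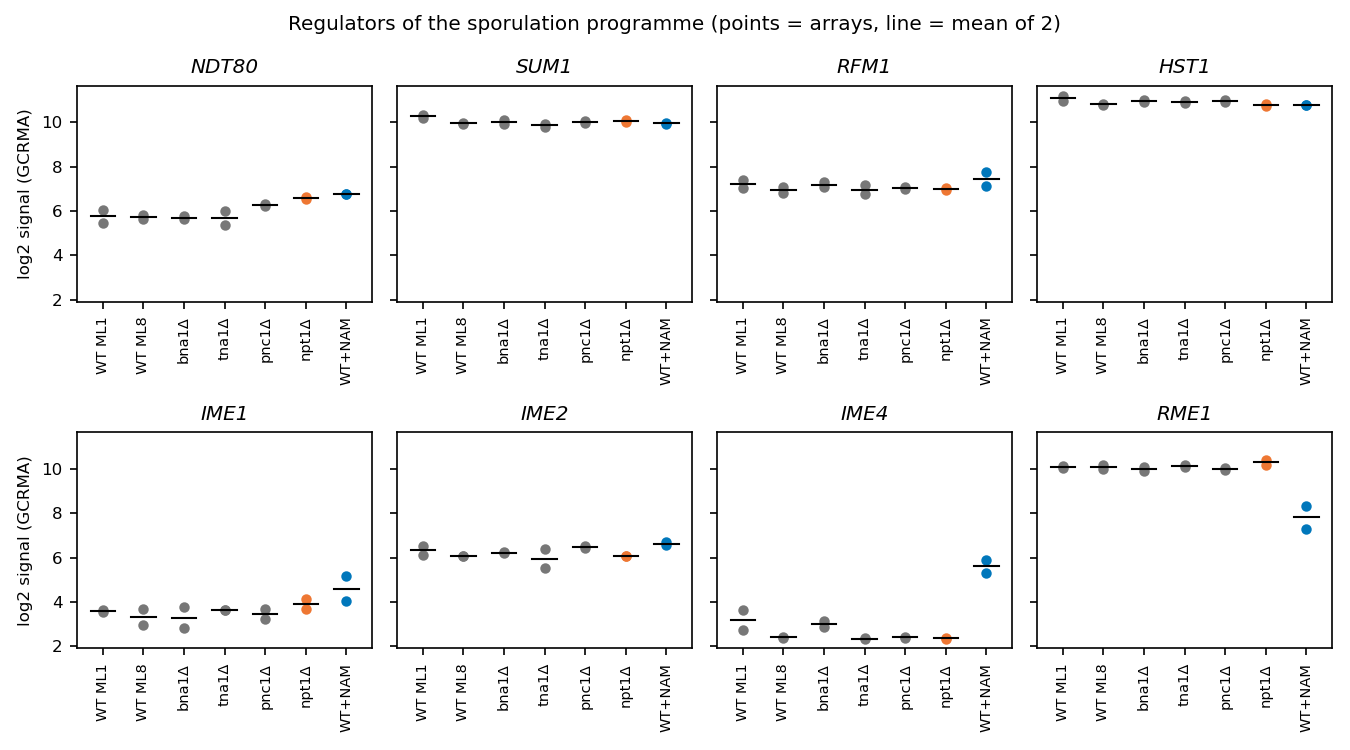
Log2 signal of 8 regulator genes (panels) on each array (points, with a line for the mean of 2) in the 7 groups. NDT80 lies at 6.54 to 6.79 in npt1Δ and nicotinamide, SUM1, RFM1 and HST1 are not called in any condition plotted, and IME4 lies at 5.32 and 5.91 and RME1 at 8.33 and 7.27 in nicotinamide.

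The genes of meiotic entry act upstream of Ndt80. In npt1Δ 0 of 7 were called, where 3.56% of all probe sets were higher. In nicotinamide IME4, an mRNA methyltransferase gene, rose by 2.81, from 2.39 to 3.65 in wild type to 5.32 and 5.91. RME1, a haploid repressor of meiosis, fell by 2.27, from 9.98 to 10.15 to 8.33 and 7.27. IME1, the master activator, was at 2.96 to 3.69 in wild type, 3.69 and 4.15 in npt1Δ and 4.03 and 5.17 in nicotinamide, and was not called (1.14, adjusted p = 0.0582, in nicotinamide). IME2, UME6, RIM11 and RIM15 were not called in either condition.

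Genes of the earlier meiotic programme, recombination and synapsis, were mostly not called. Of 15, 2 were higher in npt1Δ, SPO11 by 0.59 and DMC1 by 0.52, where 3.56% of all probe sets were higher and 0.637% lower. In nicotinamide 2 were higher, REC104 by 0.71 and DMC1 by 0.44, and SPO11 fell by 1.34. Over all probe sets 8.88% were higher there and 7.02% lower. The median of the 15 differences was 0.00 in npt1Δ and 0.04 in nicotinamide, and their mean signal was 3.66 to 3.67 on the npt1Δ arrays and 3.60 to 3.66 on the nicotinamide arrays, beside 3.55 to 3.68 in wild type. A further 8 genes of middle or late sporulation that are not among the 46 had 3 called higher in npt1Δ, and 2 higher and 1 lower in nicotinamide. IRC18 rose by 3.28 and 4.35. SPO1, a phospholipase-like gene, rose by 1.35 in npt1Δ, and AMA1, an activator of the anaphase-promoting complex in meiosis, by 1.28. SGA1, the sporulation glucoamylase gene, rose by 1.05 in nicotinamide, where SPO71 fell by 0.47. AMA1 differed by -1.06 between nicotinamide and npt1Δ (adjusted p = 0.0185). Of 14 partner genes that spore formation shares with growth, 0 were called in npt1Δ. In nicotinamide 3 were lower, beside 7.02% of all probe sets. Their differences were -0.58 for the spindle pole gene SPC42, -0.34 for CDC12 and -0.30 for the t-SNARE gene SSO1.

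Called genes occurred at low and at high levels in wild type. Of 26 genes with a wild-type mean under 3 (log2), 16 were called higher in npt1Δ and 20 in nicotinamide, where 15.3% and 24.2% of all 281 probe sets at such levels were called higher. Of 11 genes between 3 and 6, 6 and 10 were called (18.7% and 30.4% of 289 probe sets). Of 9 genes over 6, 4 and 5 were called (2.01% and 6.74% of 4928 probe sets). The largest difference among these 9, called or not, was that of SPS1. It was 1.41 in npt1Δ, where SPS1 was not called, and 2.52 in nicotinamide, where it was. These level ranges were chosen after the values were seen.

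**Figure D5:**
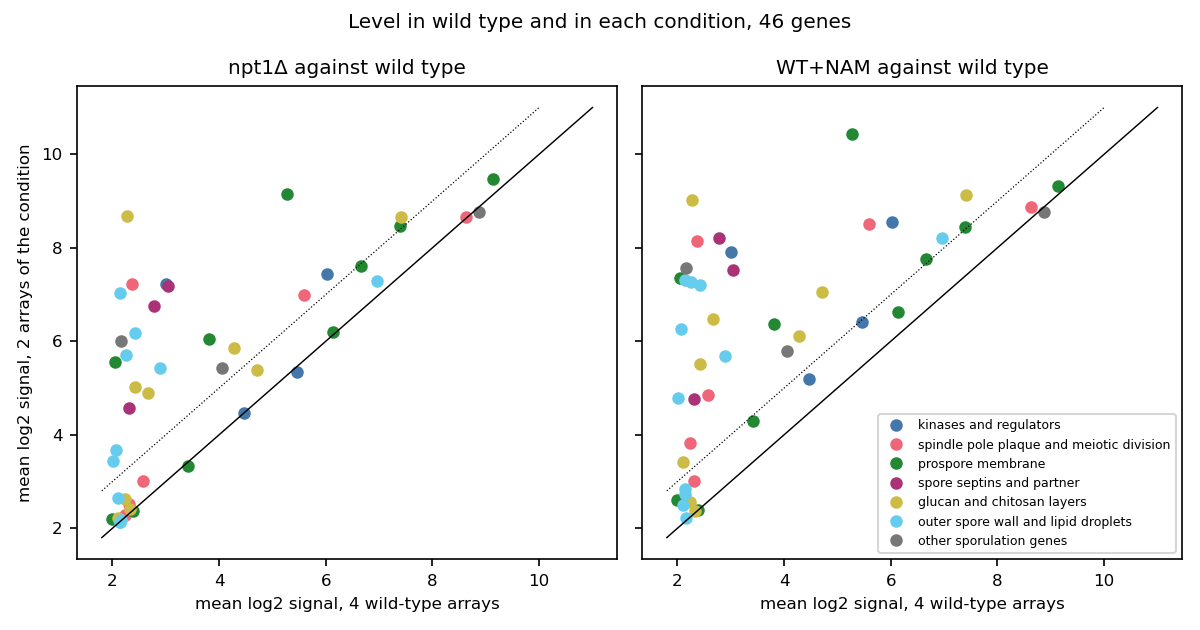
Mean log2 signal of the 46 genes in npt1Δ (left) and in nicotinamide (right) against the mean of the 4 wild-type arrays, coloured by role, with a solid line for equal levels and a dotted line for a 2-fold rise. Genes under 3 in wild type spread from 2.13 to 8.68 in npt1Δ and to 9.02 in nicotinamide, while those over 8 lie near the solid line.

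Some members lie side by side on a chromosome. In the gene order of the R64 reference, DIT1 neighbours DIT2, SPS1 neighbours SPS2, and SSP1 neighbours PFS1. In npt1Δ DIT1 rose by 2.54 while DIT2 was below background on both arrays, and SSP1 rose by 0.96 while PFS1 was not called. In nicotinamide all 6 were called, with log2 differences of 2.8 for DIT1, 2.52 for SPS1, 0.31 for SPS2 and 1.11 for SSP1. DIT2 and PFS1, below background in wild type, were at least 1.52-fold and at least 3.01-fold higher. Of the measured neighbours of called genes that are not members, 3 of 43 were higher in npt1Δ (6.98%) and 6 of 55 in nicotinamide (10.9%), beside 3.56% and 8.88% of all probe sets. IRC18, next to LOH1, was among them in both conditions.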

How the data were processed

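Log2 signal values of 10928 probe sets on 14 arrays were used as deposited, and the authors computed them with GCRMA, per the submitters' processing notes. Its version and settings are not given in the sources used here. A single gene of the R64 reference, used for names and gene order only, was matched to 5498 probe sets. Of the others, 1746 had an annotated gene not in it, 1 several genes, 213 were controls and 3470 had no gene given. No member has a shared probe set design. Arrays have no sequencing depth, and the precision depends on how many there are.

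Differences were tested with limma 3.58.1 (R 4.3.3, lmFit and eBayes) on all 14 arrays, with 8 residual and 2.01 prior degrees of freedom. The fit was also run on simulated data with independent noise, equal in all groups for a given probe set. Such data cannot check the spread at a raised level or an effect of the replicate letter. P values were adjusted by Benjamini-Hochberg over 5498 probe sets. The members and lists were chosen with earlier results of these data known. The text names up to 4 genes per role class with the lowest adjusted p, the widest gaps between nicotinamide and npt1Δ, and bright genes not called; others are given to account for all 46. The lists were repressor and activator, meiotic entry, early meiosis, other sporulation genes, growth partners and the a-, alpha- and haploid-specific markers. Alternatives were the wild-type pair, the arrays fitted, the replicate letter, normalization, a filter on dim probe sets, variance moderation, all probe sets, a 2-fold minimum and each array left out. Promoter and protein sequences were not analysed here.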

Additional observations from a re-analysis of the deposited data

Results flagged for a closer look

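Among the 46 genes, 4 had a wild-type array that stood apart from the other 3 by Dixon's criterion for 4 values, where chance alone gives about 2.3. SMK1 was at 5.75 on ML1 array A (median of the 4 arrays 5.37). On ML8 array A, SPR3 was at 2.57 (median 2.85), GAS4 at 2.52 (median 2.71) and CRR1 at 4.40 (median 4.25). The ranges of the 4 arrays were 0.16 to 0.42 (log2) for these genes. The rises of SPR3, GAS4 and CRR1 in npt1Δ and nicotinamide were still called when this array was left out.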

How the results depend on the processing

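In npt1Δ 22 to 28 of the 46 genes were called under the alternatives and 23 to 27 when 1 array was left out, beside 26; 19 of the 26 kept their call throughout. In nicotinamide the counts were 30 to 36 and 34 to 36, beside 35, and 28 kept their call throughout. The calls not kept were those of SPO21, SPO74, SPO73, DON1, DTR1, SSP1 and SPS2 in npt1Δ. In nicotinamide they were those of DIT2, SMK1, CDA2, SSP2, SPS2, SPS4 and MPC54. SSP2 turned to -0.25 in nicotinamide after quantile normalization and was then called lower in npt1Δ as well (-0.74). In pnc1Δ 0 to 1 gene was called with 1 array left out, CRR1 without either npt1Δ array and SPO77 (0.35) without pnc1Δ array A. In tna1Δ it was 0 to 1, SPO21 without tna1Δ array A. In bna1Δ and between the wild-type pairs it was 0 throughout, although without ML1 array B 1132 of all probe sets were called between those pairs, beside 4. The direct comparison of nicotinamide with npt1Δ called 9 genes when only those groups were fitted and 14 to 20 with 1 array left out, beside 20, and SPS100 (otherwise -0.16) turned to 0.40 there without npt1Δ array B and to -0.71 without array A. Of the 20 genes called in that comparison, 5 kept their call throughout. The cause of these changes was not tested.

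With the replicate letter as a replicate block, 28, 36 and 21 genes were called in these 3 comparisons and 1 in pnc1Δ (CRR1). The calls gained were SPS1 and SPS4 in npt1Δ (adjusted p = 0.0491 and 0.0468), ADY3 in nicotinamide (0.0295) and DIT2 between nicotinamide and npt1Δ (0.0486). Deviations of same-lettered arrays correlated between groups at -0.23 to 0.59 (over 0.1 in 17 of 21 pairs of groups), and in 7 of 7 groups the best match was of the same letter, a hint from the data and not from the design. Over all probe sets, fitting only the groups compared called 138 in npt1Δ (beside 231), 533 in nicotinamide (874), 29 in pnc1Δ (123) and 149 between nicotinamide and npt1Δ (497). In pnc1Δ, 258 were called against ML1 alone, 68 against ML8 alone, 240 with the block and 22 without array A. A search for a shorter promoter motif was not run, since promoters were not analysed here.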
